A study of Ovis aries with 36 samples.

Results

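Sheep cells labelled as ruminal epithelial and harvested at T4 were compared between a medium with the volatile fatty acids (VFAs) of a grain-fed rumen and a medium with those of a hay-fed rumen. The comparison took the 6 libraries labelled with this harvest, 3 for Grain and 3 for Hay, out of 36 libraries in the series. For Grain medium the labels state 115.78 mM VFAs in total and components of acetate at 71.1 mM, propionate at 20.1 mM, butyrate at 16.0 mM, valerate at 1.7 mM, isobutyrate at 1.1 mM and isovalerate at 5.3 mM. For Hay medium they state 89.79 mM in total, with the same acids at 60.8, 14.6, 9.2, 1.2, 1.0 and 3.0 mM in that order. The stated components do not add up exactly to the stated totals. Cells of both media had first been given dexamethasone at 100 nM for 2 h without serum, and both VFA media were set to pH 7.2. Dexamethasone is a glucocorticoid that can bring cellular clocks into step. T4 stands for 28 h in the labels, 4 h after the first harvest, and the other 5 harvests of each medium (T0, T8, T12, T16 and T20, which stand for 24, 32, 36, 40 and 44 h) were used to ask what was particular to T4. No cells kept without VFAs were analysed here. The acids given as sodium salts also made the sodium content differ, and concentration and composition cannot be told apart in this design.

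VFAs are released by rumen microbes, taken up by the epithelium partly through monocarboxylate transporters and ion exchangers, and partly oxidised there. Butyrate is both a fuel and an inhibitor of histone deacetylases, enzymes that remove acetyl groups from histones. Cells meet protein folding load with the unfolded protein response, in which the endoplasmic reticulum (ER) raises its chaperones. Folding load and other stresses can also set off the integrated stress response, in which the transcription factor ATF4 raises genes of amino acid supply.

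Total counts at T4 ran from 56.4 to 65.3 M per library in Grain and from 61.0 to 66.3 M in Hay (M, 1e6 counts). Log-scale correlations between replicates over all genes were 0.982 to 0.984 in Grain and 0.986 in Hay, and counts of each pair differed beyond sampling noise, with chi-square values of 6.92 to 19.8 for each degree of freedom. In a principal component analysis of the 6 libraries the media separated along the first axis, which took up 59.2% of the variance. The second axis took up 12.3% and spread the Grain libraries, at 51.6, -46.9 and -5.58, while the Hay libraries lay between -2.15 and 5.14. It is not stated in the labels that replicate libraries are from separate cultures or animals, so the p-values speak of variation among these libraries alone, and part or all of it may be technical.

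At T4, 12987 of 22488 tested genes differed between the media (57.8%; edgeR quasi-likelihood test, Benjamini-Hochberg adjusted p under 0.05). Of these, 6715 were higher in Grain (29.9% of those tested) and 6272 lower (27.9%). In 14490 genes (64.4%) the 3 Grain libraries did not overlap the 3 Hay libraries in CPM, counts per 1e6 after TMM scaling. Larger changes leaned downward, with 3172 genes at least 2-fold apart (14.1%), 1096 higher (4.87%) and 2076 lower (9.23%). That lean varied with abundance. Among the 7496 least abundant genes the median log2 fold change was -0.42, with 313 genes at least 2-fold higher and 1092 lower. Among the 7496 most abundant it was 0.13, with 330 at least 2-fold higher and 241 lower. The median over all tested genes was -0.04, and it was -0.08 with DESeq2 size factors, which gave 6231 higher and 6769 lower genes.

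**Figure D1:**
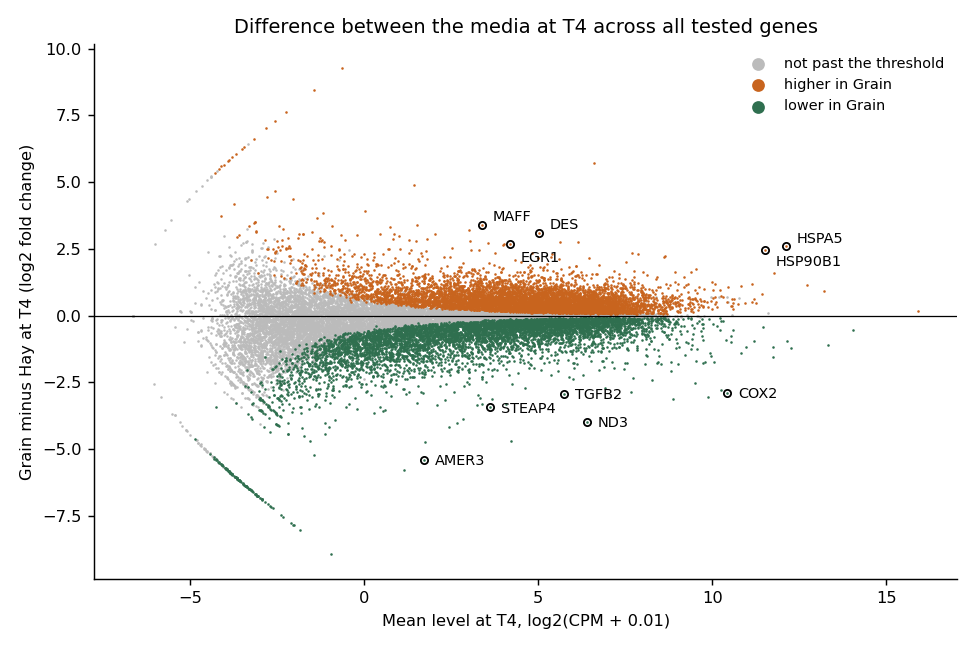
Each point is 1 of the 22488 tested genes, with its mean level over both media at T4 on the x axis, log2(CPM + 0.01), and its log2 fold change, Grain minus Hay, on the y axis. Orange genes were past the threshold and higher in Grain, green ones past it and lower, and grey ones not past it; circles mark named genes from HSPA5 at 2.59 to AMER3 at -5.40, and the diagonal edges at the left are genes with almost no count in 1 medium.

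Of the genes that rose most in Grain, HSPA5 and HSP90B1 were among the most abundant. HSPA5, the main ER chaperone, had 7618, 7414 and 7955 CPM in Grain, against 1292, 1270 and 1250 in Hay, a log2 fold change of 2.59 (SE 0.040, edgeR adjusted p = 1.27e-34). HSP90B1, the HSP90 of the ER, had 4843, 4824 and 5096 CPM in Grain and 885, 899 and 920 in Hay (2.45, SE 0.039). The libraries of each gene fell into tight, well-separated groups. MAFF, a small partner of bZIP transcription factors, gave the largest rise among the genes named here that overlap no other. It had 17.8, 19.2 and 20.3 CPM in Grain against 1.89, 2.03 and 1.47 in Hay (3.41, SE 0.129).

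DUSP2, a nuclear MAP kinase phosphatase, had 13.4, 14.9 and 15.2 CPM in Grain, against 2.01, 1.39 and 1.27 in Hay (3.21, SE 0.172). EGR1, a zinc-finger factor of the immediate early response, had 30.0, 31.6 and 33.0 CPM in Grain and 5.08, 5.05 and 4.65 in Hay (2.68). The same response includes the nuclear receptor NR4A1, which rose by 2.31, and the factor KLF2, which rose by 2.47. DES, the muscle intermediate filament desmin, averaged 58.3 ± 4.30 CPM in Grain and 6.85 ± 1.20 in Hay (SD, n = 3 each here and for every mean below), a change of 3.09. The calcitonin gene-related peptide CALCB rose by 2.72, the gp130 cytokine IL11 by 2.65 and the neuropeptide NMU by 2.46. TLR9, an endosomal sensor of DNA, averaged 5.69 ± 0.251 CPM in Grain and 1.05 ± 0.0955 in Hay (2.43). All 12 of these genes had edgeR adjusted p of 1.65e-14 or below and no overlap between the media.

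DDIT3 encodes CHOP, a transcription factor of ER stress, and overlaps another annotated gene, LOC541600. It had 187, 177 and 202 CPM in Grain, against 0.951, 0.830 and 9.17 in Hay, a fitted change of 5.73 (SE 0.603, edgeR adjusted p = 1.87e-10). Replicate 3 of Hay stood apart from the other Hay libraries here. Its LOC541600 value was 6.13 CPM, against 16.1 and 15.3 in the other 2. Summed over both genes, the Grain libraries had 270.1, 259.8 and 292.1 CPM and the Hay libraries 17.0, 16.2 and 15.3, so the spread in Hay was between the genes and not in their sum. Without strand the reads of such a pair cannot be told apart.

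Among the genes that fell most, ND3, a complex I subunit encoded in mitochondrial DNA, had 10.3, 10.3 and 9.62 CPM in Grain, against 148, 162 and 165 in Hay (-3.97, SE 0.079, edgeR adjusted p = 3.54e-31). TGFB2, a TGF-beta growth factor, had 13.2, 11.8 and 12.3 CPM in Grain and 91.6, 100.4 and 93.0 in Hay (-2.93, SE 0.063). STEAP4, a metalloreductase, had 2.15, 1.98 and 2.05 CPM in Grain and 23.7, 20.8 and 22.3 in Hay (-3.43). None of these 3 genes showed any overlap between the media.

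AMER3, a relative of the APC-binding membrane protein AMER1, had the largest fall of all genes named here, but from few reads in Grain. Its Grain libraries held 8, 13 and 6 counts, against 446, 459 and 400 in Hay (-5.40, SE 0.266). The light neurofilament gene NEFL fell by 3.32 on the log2 scale, to 3.05 ± 0.504 CPM in Grain against 30.5 ± 2.05 in Hay. PCSK1, a convertase that cuts prohormones, fell by 2.98. CXCR2, a receptor of neutrophil chemokines, averaged 0.536 ± 0.109 CPM in Grain and 5.19 ± 0.537 in Hay (-3.28). GPR50, an orphan receptor related to the melatonin receptors, averaged 0.748 ± 0.0400 and 5.62 ± 0.199 CPM in Grain and Hay (-2.91). The coiled-coil gene CCDC89 fell by 2.36. Of genes that overlap another annotated gene, RAD21L1, a meiotic cohesin subunit, fell by 4.70 and C5H5orf46 by 4.74, both uncertain for that reason.

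**Figure D2:**
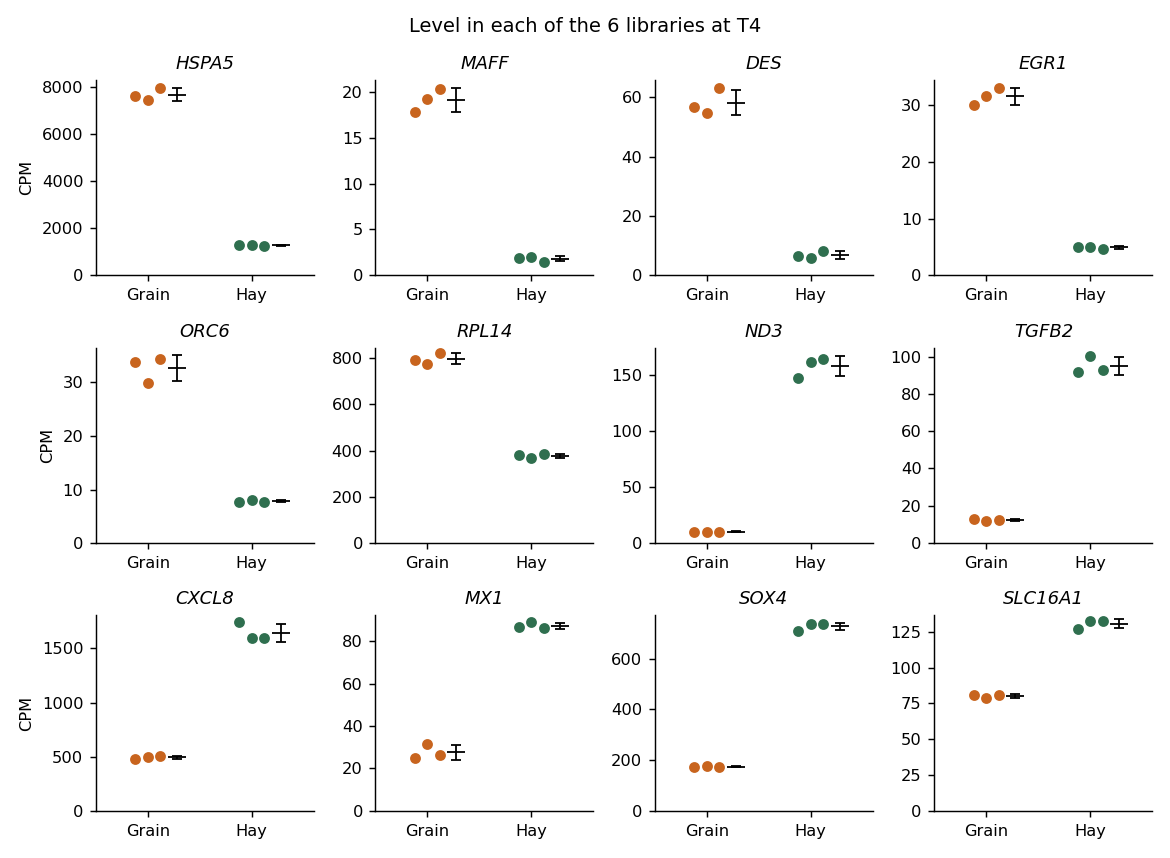
Each panel shows 1 gene at T4, with the level in CPM on the y axis (from 0), the 3 Grain libraries on the left, the 3 Hay libraries on the right, and a black bar for the mean with its SD. In all 12 panels the media do not overlap, with HSPA5 at 7414 to 7955 CPM in Grain against 1250 to 1292 in Hay and ND3 at 9.62 to 10.3 against 148 to 165.

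Counts in the lists of related genes below are read against the 29.9% of all tested genes that were higher and the 27.9% that were lower. Of 27 genes of the ER chaperone and unfolded protein list, 20 rose and 4 fell, with a median log2 fold change of 0.31, and 7 rose at least 2-fold. HERPUD1, which helps clear misfolded proteins from the ER, had 384, 372 and 399 CPM in Grain, against 81.0, 78.6 and 76.1 in Hay (2.29, SE 0.039, edgeR adjusted p = 5.05e-33). The lectin chaperone CALR rose by 0.99 and EIF2AK3, which encodes the ER stress sensor PERK, by 1.02. CREB3L2, a membrane-bound transcription factor, fell by 0.59, and EDEM1, which marks misfolded glycoproteins, fell by 0.10, a call that was lost without replicate 1 of Hay (-0.07). DNAJB9, an ER cochaperone, did not pass the test, at 45.2 ± 2.51 CPM in Grain against 46.2 ± 1.42 in Hay.

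Of 28 genes of the integrated stress response, 23 rose and 3 fell (median 0.53). ATF4, its central transcription factor, rose by 0.78 and its partner ATF3 by 1.12, though both overlap another annotated gene. AARS1, the alanyl-tRNA synthetase, had 201, 205 and 207 CPM in Grain, against 97.7, 95.1 and 99.5 in Hay (1.07). The angiogenic factor VEGFA rose by 1.16. The exceptions were large, with DDIT4, an inhibitor of mTORC1, at 4.06 ± 0.757 CPM in Grain against 14.2 ± 0.814 in Hay (-1.81), and the amino acid transporter SLC38A2 at 591 ± 14.5 CPM in Grain against 1112 ± 16.5 in Hay (-0.91).

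All 13 mRNAs encoded in mitochondrial DNA were at least 2-fold lower in Grain, with a median of -1.80, and 7 of them overlap another annotated gene. Their share of all counts was 0.959% ± 0.0143 in Grain and 2.96% ± 0.153 in Hay, a difference of -2.00 percentage points (exact two-sided permutation test, p = 0.1, the smallest that 3 against 3 allow). The falls were uneven. The cytochrome oxidase subunits COX2 and COX3 fell by 2.88 and 2.52, ND2 of complex I by 3.03, ND1 by 1.80, CYTB of complex III by 1.52 and COX1, which overlaps another gene, by 1.10. Of 18 nuclear respiratory genes tested, 6 rose and 8 fell, with a median of -0.04, from NDUFV2 of complex I at -0.81 to its partner NDUFS3 at 0.70. The list of 26 also holds complex II, which has no mitochondrially encoded subunit, and there SDHA fell by 0.43 and SDHB rose by 0.25. The other 8 genes listed, all of complexes III and IV, were not analysed here.

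Genes of cell division were higher in Grain. Of 38 mitosis genes, 36 rose and 0 fell (median 0.98), and of 43 DNA replication genes 38 rose and 2 fell (median 0.71). ORC6, a subunit of the complex that marks replication origins, had 33.8, 29.8 and 34.3 CPM in Grain, against 7.65, 7.99 and 7.71 in Hay (2.07, SE 0.066, edgeR adjusted p = 5.33e-25). GINS4 of the replicative helicase rose by 1.52 and the initiation factor MCM10 by 1.49. MAD2L1 of the spindle checkpoint rose by 1.46, the mitotic kinase AURKA by 1.59, the centromere protein CENPF by 1.11 and the topoisomerase TOP2A by 1.01. CCNE2, cyclin E2, was an exception, at 15.0 ± 1.82 CPM in Grain against 31.9 ± 2.38 in Hay (-1.08), and overlaps another gene. All 56 cytosolic ribosomal protein genes rose (median 0.60, from 0.14 to 1.24), with RPL14 at 797 ± 23.5 CPM in Grain and 377 ± 9.78 in Hay. Ribosomal proteins have many near-identical copies in the genome, and 29 of the 56 overlap another gene, so single members are uncertain.

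Immediate early genes split. Of 27, 14 rose and 9 fell (median 0.39), and 7 rose and 6 fell at least 2-fold. Beside the rises of MAFF, EGR1, KLF2 and NR4A1, the AP-1 subunit FOSL2 had 70.0, 71.2 and 72.2 CPM in Grain, against 277, 284 and 282 in Hay (-1.98, SE 0.030, edgeR adjusted p = 1.27e-34). IER3, a survival factor, fell by 1.75, IER5 by 1.71 and the matricellular protein CCN1 by 1.03. JUNB rose by 0.85. Of 17 feedback regulators of MAP kinases, 12 rose and 2 fell (median 0.45), among them the ERK phosphatase DUSP6 at 0.76, DUSP14 at 0.96 and the RAS pathway inhibitor SPRY4 at 1.45. DUSP1, the widely induced MAP kinase phosphatase, fell by 0.76.

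Of 26 inflammatory genes, 6 rose and 12 fell (median -0.26). CXCL8, a neutrophil chemokine, had 482, 495 and 503 CPM in Grain, against 1742, 1599 and 1592 in Hay (-1.74, SE 0.048). The chemokine CCL20 averaged 19.7 ± 0.0542 CPM in Grain against 97.3 ± 19.7 in Hay (-2.31), and the NF-kB modulator NFKBIZ fell by 1.19. BIRC3, an inhibitor of apoptosis, went the other way at 1.40. Of 24 interferon response genes, 3 rose and 12 fell (median -0.74). The antiviral GTPase MX1 had 24.7, 31.7 and 26.3 CPM in Grain, against 86.8, 88.9 and 86.0 in Hay (-1.66).

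Of 22 cholesterol synthesis genes, 18 rose and 4 fell (median 0.47). INSIG1, which holds sterol sensors in the ER, had 103, 105 and 110.2 CPM in Grain, against 36.9, 36.9 and 35.5 in Hay (1.54). Of 25 genes of VFA and acid transport, 6 rose and 13 fell (median -0.19). SLC16A1, the monocarboxylate transporter MCT1, had 80.6, 78.5 and 81.0 CPM in Grain, against 127, 132 and 132 in Hay (-0.71, SE 0.037, edgeR adjusted p = 1.42e-18). EMB, an ancillary protein of monocarboxylate transporters, fell by 0.86, and CA2, a carbonic anhydrase, rose by 1.06. Of 29 genes of short-chain acid oxidation and ketone bodies, 6 rose and 14 fell (median -0.08). The ketone-using enzyme OXCT1 was at -0.59, the beta-oxidation enzyme HADH at -0.40 and CPT2, which serves long-chain acids, at -0.89. Of 23 glycolysis genes, 14 rose and 8 fell (median 0.18), and LDHA fell by 0.83 and PKM by 0.77 while GAPDH rose by 0.56 and the glucose transporter SLC2A3 by 0.76.

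Of 24 core clock genes, 12 rose and 3 fell (median 0.18, from -0.98 to 0.90), none by 2-fold. Without replicate 3 of Grain or replicate 1 of Hay, 1 fell. BMAL1, the activator of the clock loop, averaged 77.5 ± 1.07 CPM in Grain and 41.6 ± 0.450 in Hay (0.90), the repressor NFIL3 rose by 0.60 and NR1D2, a REV-ERB receptor, by 0.39. PER1, a gene of the repressing arm, was at 9.31 and 8.76 CPM on average in Grain and Hay and did not pass the test. Of 20 glucocorticoid targets, 4 rose and 10 fell (median -0.61), with SGK1, a kinase of sodium transport, at 155, 154 and 154 CPM in Grain against 530, 532 and 532 in Hay (-1.78). Glutamine synthetase GLUL fell by 0.86 and the factor KLF9 by 0.50. Of 27 NRF2 antioxidant genes, 9 rose and 15 fell (median -0.20), with haem oxygenase HMOX1 at -2.03, ferritin FTH1 at -1.18 and peroxiredoxin PRDX1 at -0.92, against 0.92 for PGD of the pentose phosphate pathway. Of 17 heat shock genes, 5 rose and 12 fell (median -0.41), from the cytosolic chaperone HSP90AB1 at 1.62 to the inducible HSPA1A, which overlaps another gene, at -1.76. DNAJB1 rose by 0.93 and HSPA4 fell by 0.41. Of 15 osmotic stress genes, 6 rose and 9 fell (median -0.22), among them TSC22D2 at -0.76.

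**Figure D3:**
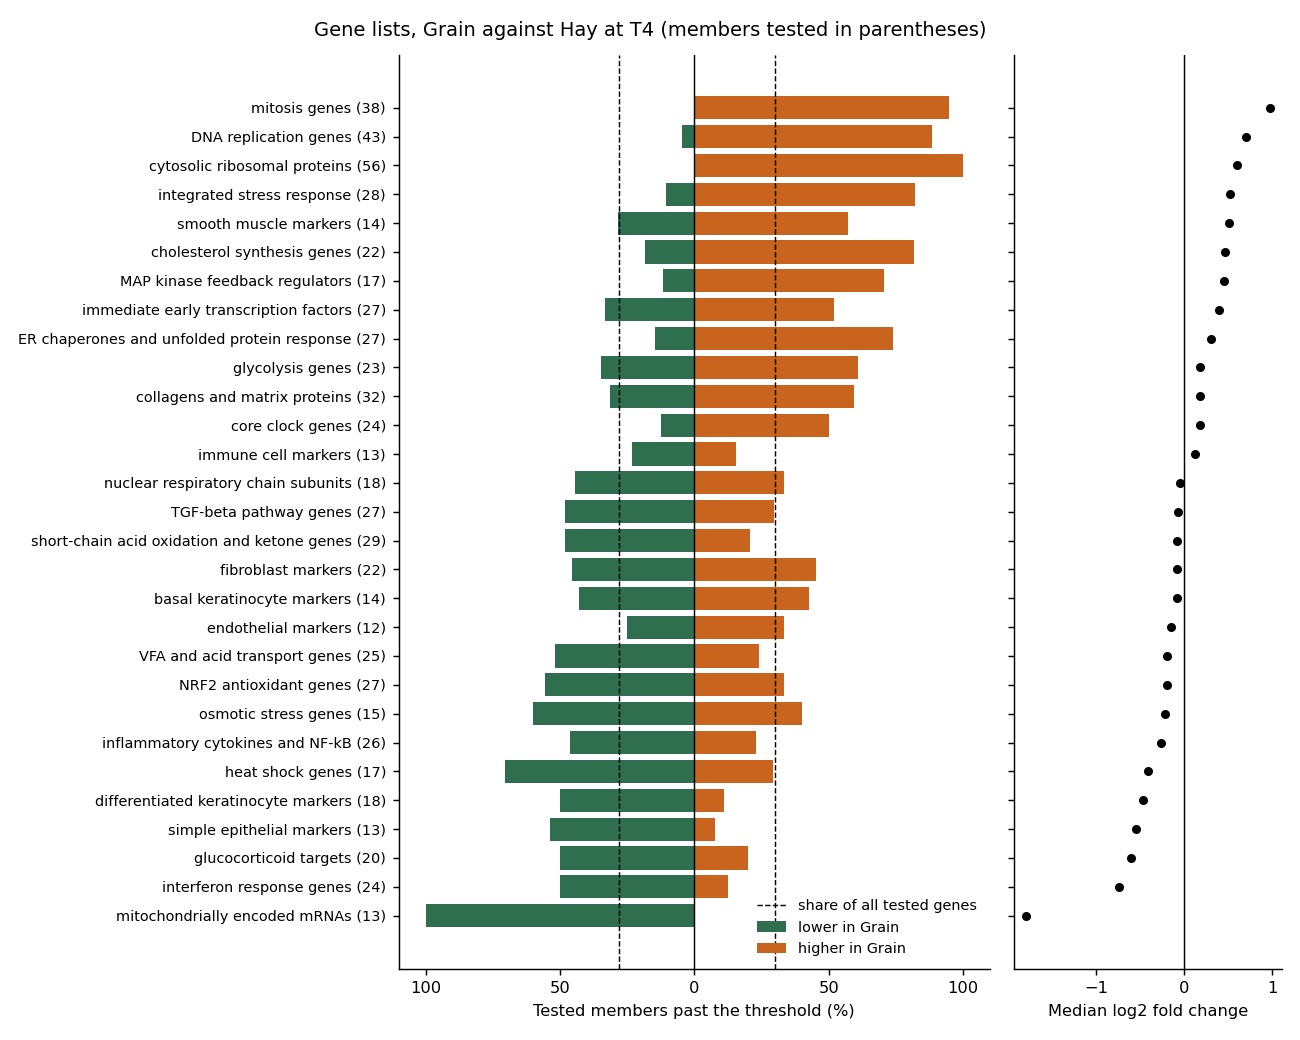
For each of 29 gene lists, with the number of members tested in parentheses, bars to the right give the percentage of members past the threshold and higher in Grain and bars to the left the percentage lower; dashed lines mark 29.9% and 27.9%, the same shares over all tested genes. The right panel gives the median log2 fold change of each list, from 0.98 for mitosis genes to -1.80 for mitochondrially encoded mRNAs.

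Some markers of the labelled cell type were low or absent, while fibroblast markers were high. Together these values go against the label as a description of the whole culture. The basal keratin KRT14 was present, at 148, 154 and 171 CPM in Grain, against 124, 116 and 122 in Hay. KRT4, a keratin of stratified lining epithelia, had 0 counts in all 6 libraries, and IVL, the cornified envelope protein involucrin, averaged 0.645 and 0.924 CPM in Grain and Hay. The fibroblast list summed to 22144 to 23034 CPM in Grain and 19944 to 20588 in Hay. That was far above the epithelial sums below, although KRT5, KRT14 and EPCAM were detected. A large part of the fibroblast sum was VIM alone. The lists also differ in size and in the abundance of their members, so their sums do not measure shares of cells. VIM, the mesenchymal filament vimentin, had 12186, 12264 and 13022 CPM in Grain, against 6347, 6756 and 6671 in Hay (0.92), and EPCAM, an epithelial adhesion gene, averaged 27.1 and 22.5 CPM in Grain and Hay (0.27). Of 22 fibroblast markers, 10 rose and 10 fell (median -0.08). Of 14 smooth muscle markers, 8 rose and 4 fell (median 0.51), with tropomyosin TPM2 at 2.01, the actin-binding TAGLN at 1.23 and CALD1 at -1.02. Of 14 basal markers, 6 rose and 6 fell (median -0.09), led by CD44, the hyaluronan receptor, at 1.63. The basal list had the largest epithelial sum, at 1909 to 1950 CPM in Grain and 1533 to 1571 in Hay. Of 18 markers of differentiated keratinocytes, 2 rose and 9 fell (median -0.47), with 1 rising when replicate 2 of Grain or replicate 3 of Hay was left out. Among those that fell were desmocollin DSC2 at -1.34 and KRT13 at -1.21. Their summed level was 269.6 to 276.1 CPM in Grain and 398.1 to 417.3 in Hay. Of 13 simple epithelial markers, 1 rose and 7 fell (median -0.55), with KRT8 at -1.44, KRT19 at -0.91 and CLDN4 at -1.10, and a summed level of 190.6 to 195.2 CPM in Grain and 314.4 to 334.7 in Hay. In RNA of whole cultures, fewer cells of a type and less RNA per cell cannot be told apart, and the part of these markers in the other differences was not tested.

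Of 12 endothelial markers, 4 rose and 3 fell, with summed levels of 96.5 to 101.2 CPM in Grain and 54.3 to 58.7 in Hay. The VEGF receptor FLT1 was the most abundant of them, at 65.5 ± 2.63 and 25.6 ± 1.69 CPM in Grain and Hay. The defining endothelial cadherin CDH5 stood at 0.157 and 0.218 CPM in Grain and Hay. Of 13 immune markers, 2 rose and 3 fell, with summed levels of 103.2 to 106.0 CPM in Grain and 64.2 to 69.7 in Hay, most of it the actin bundler LCP1, which overlaps another gene. The leukocyte gene PTPRC, which also overlaps another, stood at 0.527 and 1.11 CPM. Of 32 collagen and matrix genes, 19 rose and 10 fell (median 0.18). COL5A2 rose by 1.12 and periostin POSTN by 1.73, while COL1A2 had 3176, 3098 and 3031 CPM in Grain, against 5972, 5972 and 5938 in Hay (-0.94). Of 27 TGF-beta pathway genes, 8 rose and 13 fell (median -0.07), with the activin subunit INHBA at -0.99 and the BMP antagonist GREM1 at -1.17.

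What set T4 apart was asked by a direct test of the difference of differences, Grain minus Hay at T4 less the mean of the same at the other 5 harvests. It was past the threshold in 2897 of 22488 genes (12.9%; edgeR), with 1556 genes higher at T4 (6.92%) and 1341 lower (5.96%). The departures were small, with median sizes of 0.26 and 0.24 on the log2 scale, and 366 reached 1.5-fold. Among the 1556, Grain was lower than Hay at T4 in 539 genes, so that a fall was narrower there. Grain was higher at T4 in 695, where the difference was wider than the mean of the others or differed from it in sign. The other 322 were not past the threshold at T4. Among the 1341, a rise in Grain was narrower at T4 in 519 genes. In 578 Grain was lower at T4, again with a wider difference or a change of sign, and 244 were not past the threshold.

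The count differed with the harvests that T4 was set against. Against T12 alone 6133 genes departed (27.3%), 3544 of them higher (15.8%) and 2589 lower (11.5%). Against T16 4136 departed (18.4%; 9.9% higher and 8.49% lower), against T0 1906 (8.48%; 3.61% and 4.87%) and against T20 915 (4.07%; 1.83% and 2.24%). Against the mean of T12, T16 and T20 they numbered 5122 (22.8%; 12.7% and 10.1%). Against T8, the next harvest, 4 departed (0.0178%), 2 each way (0.00889% each). At an unadjusted p under 0.05 the count against T8 was 1917, and the median size of that change was 0.129 on the log2 scale beside a median SE of 0.173. Against the mean of the neighbours T0 and T8, 35 genes departed (0.156%), 7 higher (0.0311%) and 28 lower (0.125%), and 2063 had an unadjusted p under 0.05. In 0 genes was the T4 difference past the edgeR threshold against T0 and against T8 in the same direction (224 at an unadjusted p under 0.05), though 35 of the 35 departed from T0 alone. A p that misses the threshold does not show that T4 and T8 were alike. Of the 28 genes named below for a departure from the other 5 harvests, 7 also passed against T0 and T8 (SOX4, PLK2, PTMA, JUN, TCIM, IER5 and DZIP3), 19 kept their direction without passing and 2 changed sign. The comparisons share the T4 libraries, and their counts are given side by side for that reason.

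**Figure D4:**
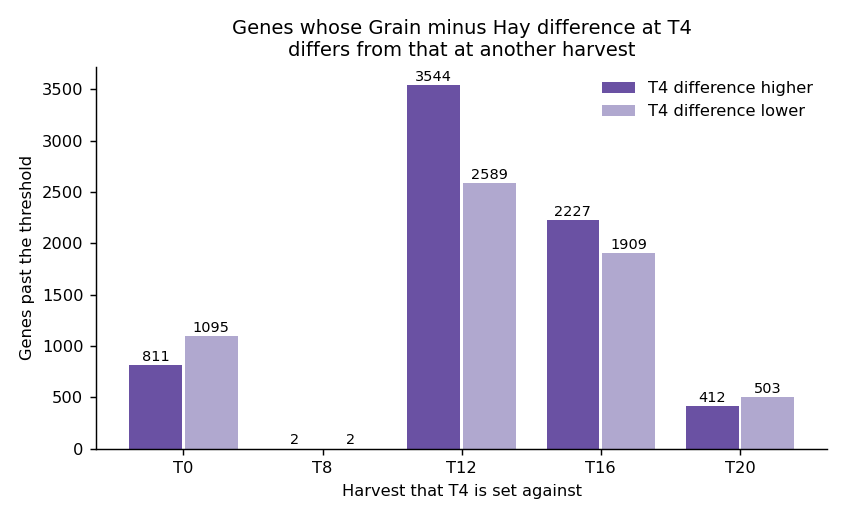
Bars give the number of genes (y axis, from 0) whose Grain minus Hay difference at T4 was past the threshold when set against each other harvest (x axis), dark for a difference higher at T4 and light for lower. The counts are 3544 and 2589 against T12 and 2 and 2 against T8.

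Among the departures with the smallest p, those of SOX4 and PLK2 were widenings of a fall. SOX4, a transcription factor of progenitor cells, had 174, 176 and 173 CPM in Grain at T4, against 710, 735 and 736 in Hay, a difference of -2.06. At T0, T8, T12, T16 and T20 its difference was -1.53, -2.15, -1.17, -1.45 and -1.73, so that T8 went further than T4. The departure from the mean of these was -0.46 (SE 0.03, edgeR adjusted p = 2.61e-13). PLK2, a polo-like kinase, had 371, 398 and 374 CPM in Grain and 1299, 1328 and 1313 in Hay at T4, and departed by -0.42. Both genes also passed against T0 and T8 (-0.22 and -0.20).

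In other genes the sign of the difference was not constant. PTMA, prothymosin alpha, had 243, 248 and 257 CPM in Grain at T4, against 341, 360 and 359 in Hay (-0.50). Its difference was 0.03 at T0, -0.60 at T8, 0.66 at T12, 0.38 at T16 and 0.06 at T20, a departure of -0.61. Copies of this gene in the genome make its counts uncertain. KRT5, the basal keratin, had 36.5, 37.0 and 45.4 CPM in Grain and 57.9, 56.2 and 53.2 in Hay at T4 (-0.49), with differences of 0.54 at T0 and 0.62 at T12. It departed by -0.67, and by -0.35 without passing against T0 and T8 (edgeR adjusted p = 0.0881). JUN, the AP-1 subunit, had 114, 113 and 122 CPM in Grain at T4, against 141, 136 and 139 in Hay (-0.25), while its difference was 0.59 at T0, -0.43 at T8 and 0.51 at T12. TCIM, a regulator of growth signalling, averaged 37.9 ± 1.36 CPM in Grain and 59.5 ± 1.08 in Hay at T4 (-0.65) and departed by -0.74. SERPINB1, an inhibitor of neutrophil proteases, had 221, 225 and 226 CPM in Grain and 173, 158 and 167 in Hay (0.43), with -0.90 at T12, and departed by 0.55.

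The largest departure upward of a gene named here was that of DUSP2, with a difference of 3.21 at T4 compared with 2.99 at T0, 3.37 at T8 and 1.03 at T12, a departure of 0.99. Against T0 and T8 it was 0.03 and did not pass. MMP1, an interstitial collagenase, had 119, 113 and 100.5 CPM in Grain at T4, against 278, 262 and 269 in Hay (-1.29). At T0, T8, T12, T16 and T20 its difference was -2.00, -0.93, -2.82, -2.52 and -2.18, and the departure was 0.80 (SE 0.06, edgeR adjusted p = 2.33e-11). Against T0 and T8 it was 0.18 (edgeR adjusted p = 0.417). DZIP3, a ubiquitin ligase, was at -2.20 at T4 and departed by 0.78, and ARL11, a small GTPase relative, was at -1.49 and departed by 0.69. GAL, the neuropeptide galanin, did not pass the test at T4 (-0.20) but did without replicate 3 of Hay (-0.31, edgeR adjusted p = 0.0298), and departed by 0.90. GCNT3, a mucin glycosyltransferase, and ATP12A, a proton pump subunit, also did not pass at T4 (0.10 and 0.16), and departed by 0.75 and 0.74. The growth factor FGF19 departed by 0.68, a call that was lost without replicate 1 of Hay (0.60) and without replicate 3 of Hay (0.61).

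The largest departure downward of a gene named here was that of AMER3 at -2.31, from the few Grain counts given above. H1-2, a linker histone with close copies, did not pass at T4 (0.23, edgeR adjusted p = 0.0508) and departed by -0.79. It passed at T4 without replicate 1 of Grain (0.33) and in the T4 libraries alone (0.23, adjusted p = 0.0293). LAD1, a basement membrane anchor, was at -1.82 and departed by -0.79, and the viral RNA sensor RIGI was at -1.48 and departed by -0.73. LRRC58 and MEDAG, an adipogenesis gene, were higher at T4 (0.32 and 0.57) but higher still at T12 (2.01 and 2.09), and departed by -0.78 and -0.72. NR4A3, an immediate early receptor, did not pass at T4 (-0.11) and departed by -0.75.

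**Figure D5:**
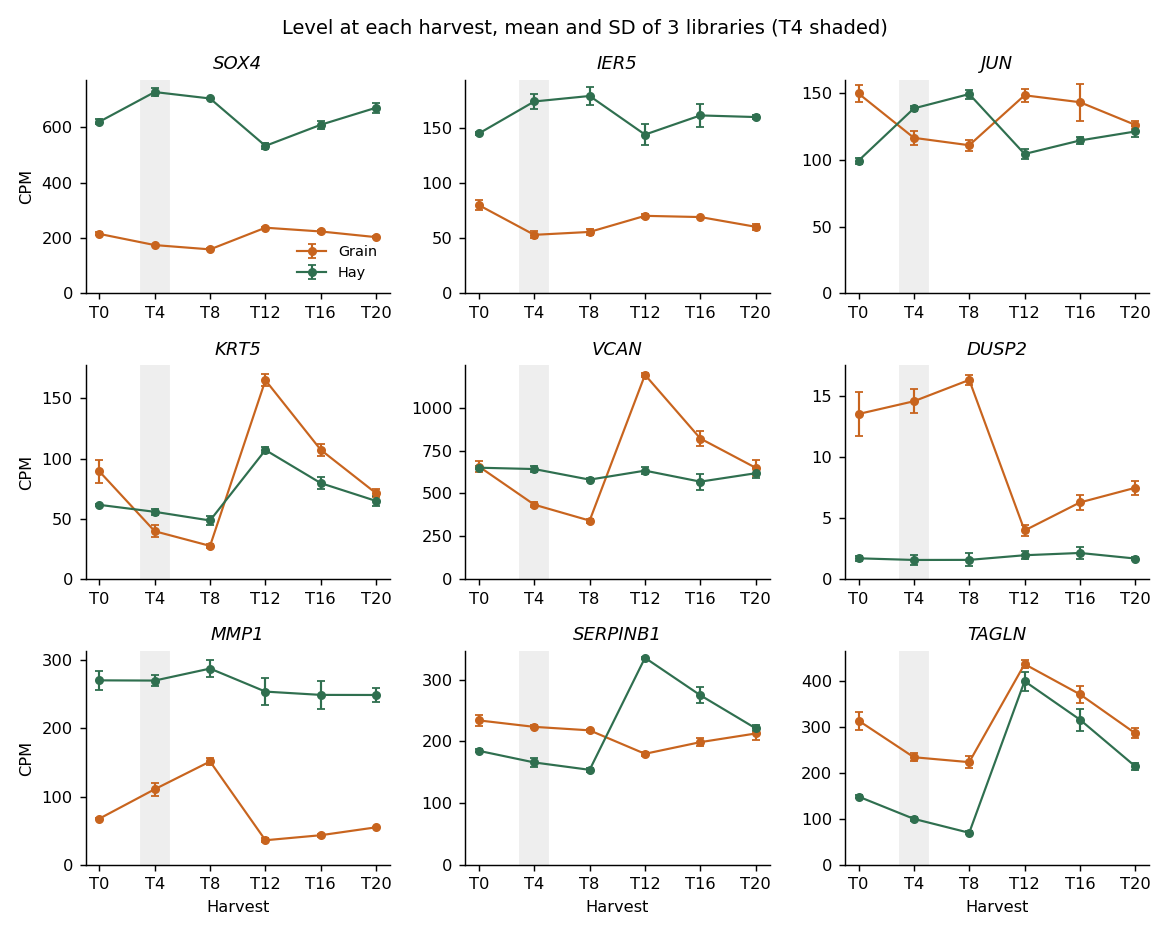
Each panel gives the level of 1 gene in CPM (y axis, from 0) at each harvest (x axis), Grain in orange and Hay in green, as the mean and SD of 3 libraries, with T4 shaded. In SOX4 and IER5 the gap is wide at T4 and T8; in JUN and KRT5 Grain lies below Hay at T4 and T8 and above it at T0 and T12.

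By group, the Grain minus Hay difference was lower at T4 than at the other harvests in 18 of 32 members of the matrix list. It was higher in 1, against 5.96% lower and 6.92% higher among all tested genes. VCAN, the proteoglycan versican, had 435, 418 and 450 CPM in Grain at T4 and 620, 651 and 655 in Hay (-0.56), and departed by -0.72. Of the 13 mitochondrially encoded mRNAs, 9 departed downward and 0 upward, with COX3 at -0.29. Of 18 nuclear respiratory genes, 8 departed upward and 0 downward. Basal keratinocyte markers departed downward in 6 of 14, differentiated ones in 6 of 18, osmotic stress genes in 6 of 15 and glucocorticoid targets in 8 of 20 with 1 upward. Of 27 immediate early genes, 8 departed downward and 3 upward, with NR4A1 at -0.53 and KLF2 at 0.64. The median departure was -0.16 in the matrix list, -0.24 in the mitochondrial one and 0.11 in the nuclear respiratory one, beside 0.03 over all tested genes. Against T0 and T8 the number past the threshold was 0 in the matrix, mitochondrial, nuclear respiratory, osmotic stress and glucocorticoid lists (edgeR; 19, 4, 5, 5 and 6 at an unadjusted p under 0.05), 1 of 14 in the basal list and 2 of 18 in the differentiated one.

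The 35 genes that departed from T0 and T8 held 3 of the 27 members of the immediate early list, all lower, beside 0.125% of all tested genes lower. IER5 had 49.3, 54.6 and 54.8 CPM in Grain at T4, against 181, 171 and 168 in Hay (-1.71). It departed by -0.44 from the mean of its neighbours (edgeR adjusted p = 0.00024) and by -0.47 from that of all other harvests. JUN departed by -0.33 and by -0.46, and CCN1 departed from the mean of its neighbours by -0.25. The keratins KRT6A (-0.44), KRT14 (-0.32) and KRT17 (-0.29), the mitotic kinase AURKA (-0.61), TCIM (-0.31), PTMA (-0.21) and INSIG1 (-0.29) were also among them. DZIP3 was among the 7 that departed upward, at 0.40. All 35 departed from T0 alone in the same direction, and 0 departed from T8 alone. Against T8 the change was -0.03 in IER5 (edgeR adjusted p = 0.959), 0.18 in JUN and 0.14 in CCN1. In JUN and CCN1 the T8 difference thus went further than that of T4.

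The 4 genes that departed from T8 were named after their values were seen. CH25H, cholesterol 25-hydroxylase, had 7.24, 7.39 and 7.54 CPM in Grain at T4, against 22.3, 22.5 and 21.0 in Hay. At T8 it had 9.42, 8.34 and 9.14 CPM in Grain and 18.4, 19.0 and 18.2 in Hay, a narrower gap, and the change was -0.52 (edgeR adjusted p = 0.00437). TAGLN had 232, 226 and 244 CPM in Grain at T4, against 105, 98.9 and 96.4 in Hay, and 237, 213 and 220 in Grain at T8, against 73.3, 69.6 and 66.0 in Hay (-0.45, adjusted p = 0.00437). In TAGLN the Grain libraries of T4 and T8 overlapped and the Hay libraries did not. IL1A, the cytokine interleukin 1 alpha, was at -1.70 at T4 and -2.00 at T8, a change of 0.30, and MAT2A, which makes S-adenosylmethionine, was at -0.09 and -0.35, a change of 0.25 (adjusted p = 0.0326 for both).

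Set within its own medium, Grain at T4 differed from the mean of the other 5 Grain harvests in 6392 genes (28.4%), 3383 higher (15%) and 3009 lower (13.4%). Hay at T4 differed from the other 5 Hay harvests in 2877 genes (12.8%), 1142 higher (5.08%) and 1735 lower (7.72%), and in 1754 without replicate 2 of Hay. Of the 1556 genes whose difference was higher at T4, 966 had passed in Grain alone, 321 in Hay alone, 198 in both and 71 in neither. Of the 1341 that were lower, these numbers were 817, 182, 263 and 79. Against the neighbours T0 and T8, 712 genes passed in Grain (3.17%; 1.89% higher and 1.28% lower) and 23 in Hay (0.102%; 0.0711% and 0.0311%).

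Within each medium, changes at T4 are given against the mean of the other 5 harvests. ACTA2, smooth muscle actin, was lower at T4 by 0.84 in Grain and by 0.90 in Hay, TAGLN by 0.44 and 0.96, and KRT5 by 0.99 and 0.32. All 3 genes had lower means at T8 than at T4 in both media, with KRT5 at 25.7 to 28.9 CPM at T8 in Grain against 36.5 to 45.4 at T4. In Hay, KLF2 fell by 0.99 and ACTG2, an enteric actin that overlaps another gene, by 1.36. ACTG2 in Hay was lower still at T8, at 6.38 to 7.10 CPM against 11.0 to 12.0 at T4. GPR50 rose in Hay by 0.91, NEFL by 0.84 and the growth inhibitor MSTN, which overlaps another gene, by 0.84. In Grain, AMER3 fell by 2.11, and RAD21L1 and C5H5orf46 each rose by 1.70. The AMER3 change rests on the few Grain counts given above. RAD21L1 and C5H5orf46 were far lower in Grain than in Hay at T4, and both overlap another annotated gene. ABHD15, which overlaps another gene, rose by 1.32 in Grain, but its Grain libraries held 40.4, 50.6 and 10.3 CPM at T4 and overlapped the Hay libraries at 13.3, 14.8 and 16.3.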

How the data were processed

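RNA of 36 libraries was sequenced from TruSeq RNA v2 libraries, per the labels' protocols, a kit that does not mark strand. HISAT2 2.2.1, SAMtools 1.20 and StringTie 2.1.5 are named, per the submitters' processing notes, while the genome build is not given in the sources used here. Read counts of 35223 genes, not normalised, were deposited by the authors. A RefSeq table of ARS-UI_Ramb_v3.0 served only for names and overlaps.

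Genes were filtered with filterByExpr (minimum count 10, minimum total 15), which left 22488. Counts were scaled by TMM and tested with edgeR 4.0.16 quasi-likelihood (limma 3.58.1, R 4.3.3) in 1 fit of 12 group means to all 36 libraries (24 residual degrees of freedom). Tests were two-sided, adjusted by Benjamini-Hochberg over all tested genes at 0.05. The procedure was tested on simulated data.

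Named genes had a plain symbol and at least 5 CPM in a T4 group: the 12 largest changes each way at T4 with the media apart and no overlapping gene (3 each way with overlaps allowed), the 8 largest departures each way and the 4 smallest p, the 3 largest within each medium, and list members with the smallest p or past the departure threshold; other members and the genes departing from T0, T8 or both were added. The comparison and the 29 lists (707 genes, 666 tested) were chosen with earlier results of these data known. Alternatives were DESeq2 1.42.0, DESeq2 size factors, no filter, the T4 libraries alone, a replicate block and leaving out each T4 library. Some genes that this rule names are not reported here.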

Additional observations from a re-analysis of the deposited data

Results flagged for a closer look

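These results differ between harvests by the direct test of the difference; with 3 libraries a group, no single library was tested for standing apart. The Grain minus Hay difference at T4 departed from the mean of the other 5 harvests in 2897 genes, 12.9% of those tested by edgeR. Values below are log2 departures, positive where the difference was higher at T4.

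Among regulators of growth and transcription, the departure was 0.99 for DUSP2, 0.64 for KLF2, -0.53 for NR4A1, -0.75 for NR4A3, -0.47 for IER5, -0.46 for JUN, -0.46 for SOX4, -0.42 for PLK2, -0.74 for TCIM and -2.31 for AMER3. Among secreted and matrix genes it was 0.80 for MMP1, 0.90 for GAL, 0.68 for FGF19 and -0.72 for VCAN. For cytoskeletal and epithelial genes it was -0.67 for KRT5, -0.79 for LAD1 and 0.52 for TAGLN. Enzymes, pumps and immune genes gave 0.74 for ATP12A, 0.75 for GCNT3, -0.29 for COX3, 0.78 for DZIP3, 0.69 for ARL11, 0.55 for SERPINB1 and -0.73 for RIGI. The remaining genes were PTMA at -0.61, the linker histone H1-2 at -0.79, LRRC58 at -0.78 and MEDAG at -0.72. Against T0 and T8, 7 of these 28 genes passed (SOX4, PLK2, PTMA, JUN, TCIM, IER5 and DZIP3) while 19 kept their direction without passing and 2 changed sign. Among those that did not pass were DUSP2 at 0.03, KLF2 at 0.27, NR4A1 at -0.01 and NR4A3 at -0.35. In the same test against T8 alone, 4 genes departed, CH25H by -0.52, TAGLN by -0.45, IL1A by 0.30 and MAT2A by 0.25.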

How the results depend on the processing

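The number of genes differing at T4 ranged from 12647 to 13146 with DESeq2, DESeq2 size factors, no low-count filter, a replicate block or the T4 libraries alone, and from 12139 to 12391 when a library was left out. With a minimum of 2-fold it was 3172, of which 1096 were higher and 2076 lower. Departures from the other 5 harvests numbered 2522 to 3181 under the tool, filter, scaling and block settings and 2120 to 2595 without a library. With a minimum of 1.5-fold they were 366, 248 higher and 118 lower.

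The harvests chosen for comparison moved this count most among the settings tried. Against T0 and T8 it was 35 (7 higher, 28 lower), against T0 alone 1906 (811 higher), against T8 alone 4 (2 and 2), against T12 alone 6133 (3544 and 2589) and against T20 alone 915 (412 and 503). Against T12, T16 and T20 together it was 5122 (2852 and 2270). Single harvests and the later 3 were added after seeing the data, and fewer harvests enter these contrasts. Of the 28 genes named for a departure from the other 5 harvests, 7 kept their call against T0 and T8, 19 lost it in the same direction, and GAL turned to -0.0201 and TAGLN to -0.15, neither past the threshold; the cause was not tested.

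Within a medium, 712 genes (425 higher, 287 lower) departed from T0 and T8 in Grain and 23 (16 and 7) in Hay, also added later. Leaving out a Hay library gave 1754 to 2357 genes for Hay, 618 to 935 higher and 1136 to 1422 lower, with the lowest values without replicate 2 (1754, 618 and 1136) and 698 higher without replicate 3. The mitochondrial share differed by -1.95 to -2.09 points without a library.

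No sign of pairing by replicate number was seen at T4. Deviations of same-numbered Grain and Hay libraries at T4 correlated across genes at -0.0130, -0.0155 and 0.0217. Such values cannot show whether same-numbered cultures were handled together. The replicate block result, 12939 genes at T4 and 2935 departures, thus concerns a shared number only. Genes under about 1 CPM, among them AMER3 in Grain, rest on few counts at this depth.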
